A study of Mus musculus with 4 samples.

Results

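The genes described here are 35 that control the redox balance of a cell, its glutathione and its iron. They were taken by symbol from a fixed list of names, and each stood on 1 of the 23700 rows of the deposited tables. Spleen helper T cells of C57BL/6 mice aged 43 weeks were profiled by RNA sequencing in 4 libraries. The group WT has 2 libraries with the genotype wild type (WT 1 and WT 2), and the group KO has 2 libraries with the genotype RIPK1-KO (KO 1 and KO 2; below, paired values are given in this order), for a loss of RIPK1 that the series design limits to T cells. All 4 titles also carry the word Ctrl, which the labels do not explain. The Cre line, the part of Ripk1 removed and the number of mice behind each group are details not given in the sources used here. Each p-value therefore reflects library-to-library variation only, and this variation may be technical. Each library gave 1 FPKM value per row (fragment count divided by transcript length and by the library's mapped fragments).

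Cells meet hydrogen peroxide, superoxide and lipid peroxides with enzymes that draw their electrons from glutathione or thioredoxin, and both are recharged with NADPH. NRF2 (gene Nfe2l2) is the transcription factor that turns many of these genes on; KEAP1 marks NRF2 for breakdown, and BACH1 competes with it for the same DNA sites. Free iron drives lipid peroxidation and a form of cell death named ferroptosis, so cells store iron in ferritin (Fth1 and Ftl1) and adjust uptake through the transferrin receptor (Tfrc). Activated T cells raise glutathione synthesis and iron uptake as they start to grow and divide.

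NRF2 and BACH1 bind the antioxidant response element, whose core reads TGACNNNGC. Promoter windows of 300 bases (250 before the start to 50 after it, RefSeq, GRCm38.p6) were found for 30 of the 35 genes, and 7 of these 30 held the core on either strand. Of all 27025 genes with a window, 3781 (13.99%) held it, and 12.39% of all windows of 300 bases. The matches of the 7 genes are shown because they are the sequences these regulators could read; the core is in capitals, and each line is written on the strand on which the core reads forward.
Nfe2l2: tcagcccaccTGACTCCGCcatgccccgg
Gclm: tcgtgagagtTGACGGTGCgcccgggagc
Txnrd1: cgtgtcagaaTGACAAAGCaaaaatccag
Srxn1: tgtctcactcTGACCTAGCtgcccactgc
Prdx1: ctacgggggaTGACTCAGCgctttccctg
Sod1: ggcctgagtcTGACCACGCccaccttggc
Ncoa4: aggcggggcgTGACCTGGCcggtagggta
These stretches lie at chr2:75704885-75704913 (minus strand) for Nfe2l2, chr3:122245413-122245441 (minus) for Gclm and chr10:82859104-82859132 (minus) for Txnrd1. They lie at chr2:152105542-152105570 (minus) for Srxn1, chr4:116685456-116685484 (minus) for Prdx1, chr16:90220696-90220724 (minus) for Sod1 and chr14:32165735-32165763 (plus) for Ncoa4. The Txnrd1 match is in 1 of 3 windows of that gene and the Ncoa4 match in 1 of 3. A match is only a run of letters. Gclc, Gsr, Hmox1, Prdx6 and Slc40a1 had no window in the table.

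Iron regulatory proteins read a second kind of sequence, the iron-responsive element, a hairpin with the loop CAGTGN above a stem of 5 base pairs and an unpaired C. Such a hairpin was found in 222 of 21877 protein-coding genes (1.015%, GENCODE vM21 transcripts) and in 5 of the 35 genes. In 4 of these it lies in an untranslated region: before the coding sequence in the ferritin genes and in Slc40a1, where it governs translation, and behind it in Tfrc, where it governs the life of the mRNA. The fifth match, in the coding sequence of Keap1, is not shown. The loop is in capitals.
Fth1: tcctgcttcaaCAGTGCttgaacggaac
Ftl1: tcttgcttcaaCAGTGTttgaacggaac
Slc40a1: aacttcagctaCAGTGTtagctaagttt
Tfrc element 1: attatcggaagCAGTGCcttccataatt
Tfrc element 2: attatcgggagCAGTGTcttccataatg
Tfrc element 3: tatatcggagaCAGTGAtctccatatgt
Tfrc element 4: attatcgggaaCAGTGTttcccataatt
The unpaired C is base 664 of a Fth1 transcript of 1494 bases, 84 of a Ftl1 transcript of 968 bases and 96 of a Slc40a1 transcript of 3370 bases, and the 4 of Tfrc are at bases 3321, 3700, 3765 and 3812 of 4890.

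Facts of the whole tables that bear on every value are these. The steps of the low values give an estimated depth of 21350000 and 22050000 fragments (WT) and of 17550000 and 19100000 (KO), so that a transcript of 2 kb at 1 FPKM rests on 31.6 to 39.7 fragments. Ripk1 itself was at 5.61 and 5.60 FPKM in WT and at 10.4 and 9.54 in KO, so as deposited the targeted gene goes against the label. Directions are therefore given for the libraries labelled KO. Its log2 change lay 0.35 above the median gene, and 58.5% of all tested genes also had both libraries labelled KO above both WT. The rise passed as deposited (limma adjusted p = 0.0262), but not after trimmed-mean scaling (limma adjusted p = 0.222) or quantile normalization (limma adjusted p = 0.257). If the deletion spares most exons, a gene-wide FPKM cannot test it. Of 11074 genes tested, 25.6% were called higher and 1% lower in the libraries labelled KO (limma on log2(FPKM + 1), adjusted p under 0.05), and the median gene lay 0.38 higher on the log2 scale. After trimmed-mean scaling, which sets the middle of all genes equal between libraries, 4.68% were higher and 5.2% lower and the median gene lay at -0.01. All 8 markers of helper T cells were present in every library, and they did not move as one. Cd4 (86.3 and 87.3 FPKM in WT, 211 and 185 in KO), Cd3e and Cd5 rose as deposited, Lat, Cd3g, Cd247 and Cd28 overlapped between the groups, and Cd3d (185 and 238 FPKM in WT, 175 and 169 in KO) fell after trimmed-mean scaling (limma adjusted p = 0.0422).

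**Figure D1:**
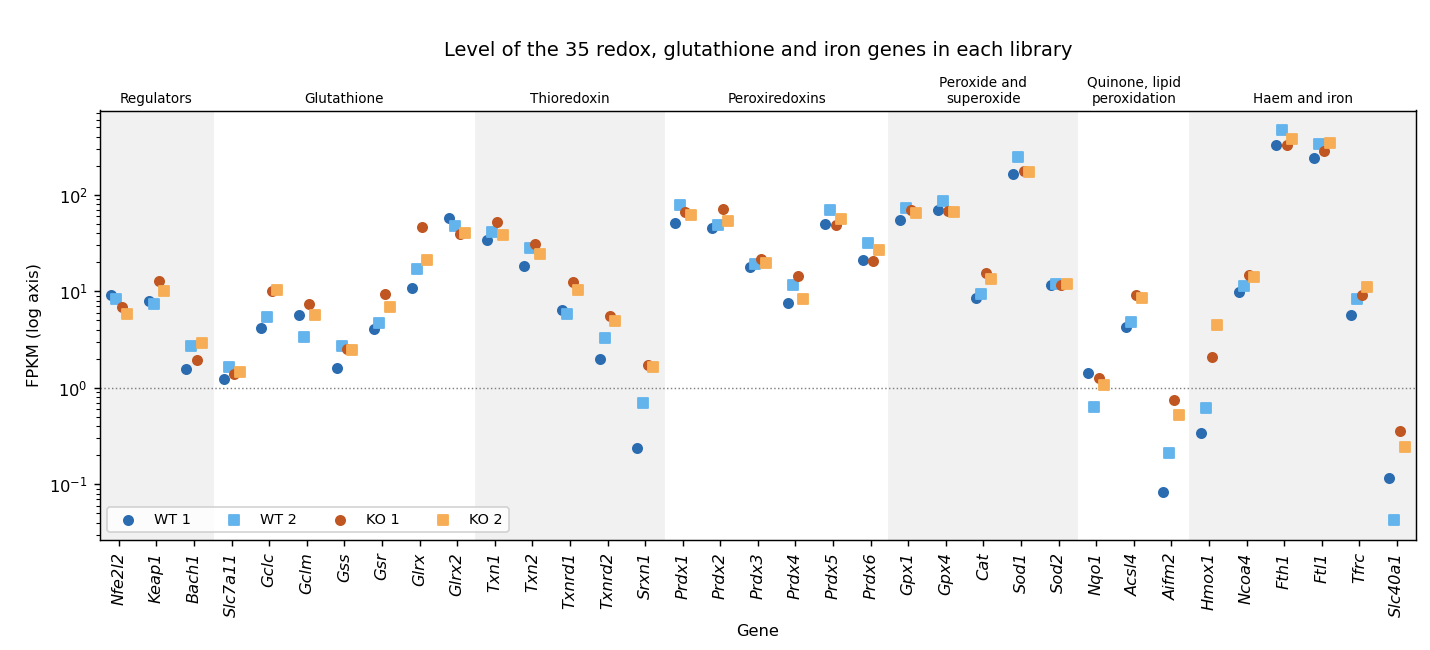
FPKM of each of the 35 genes (log axis) in WT 1, WT 2, KO 1 and KO 2, 1 point per library, ordered by role; the dotted line is 1 FPKM. The ferritin genes Fth1 and Ftl1 lie highest, at 239 to 471 FPKM, and Slc40a1 (0.0426 to 0.357 FPKM) and Aifm2 (0.0827 to 0.748 FPKM) lie lowest by mean.

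Of the 35 genes, 33 reached 1 FPKM in at least 2 libraries and were tested. As deposited, 8 of the 33 (24.2%) rose in the libraries labelled KO and 0 fell, against 25.6% and 1% of all tested genes, so the share that rose was near the background. The 8 were Hmox1, Gclc, Srxn1, Acsl4, Txnrd1, Txnrd2, Gsr and Cat. Of these, Hmox1 and Srxn1 were under 1 FPKM in both WT libraries and could be tested only through the libraries labelled KO. The median log2 change of the 33 was 0.22, against 0.38 for all tested genes, and 19 of them lay below the median gene. After trimmed-mean scaling 0 rose and 3 fell (Nfe2l2, Glrx2 and Gpx4), against 4.68% and 5.2% of all genes. After quantile normalization 0 passed in either direction, against 1.62% and 0.695% of all genes. There 10 of the 33 had an unadjusted p under 0.05 in limma, as did 3742 of all 11074 tested genes. Libraries of bulk RNA are mixtures, and fewer cells of a type cannot be told apart from less RNA per cell.

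**Figure D2:**
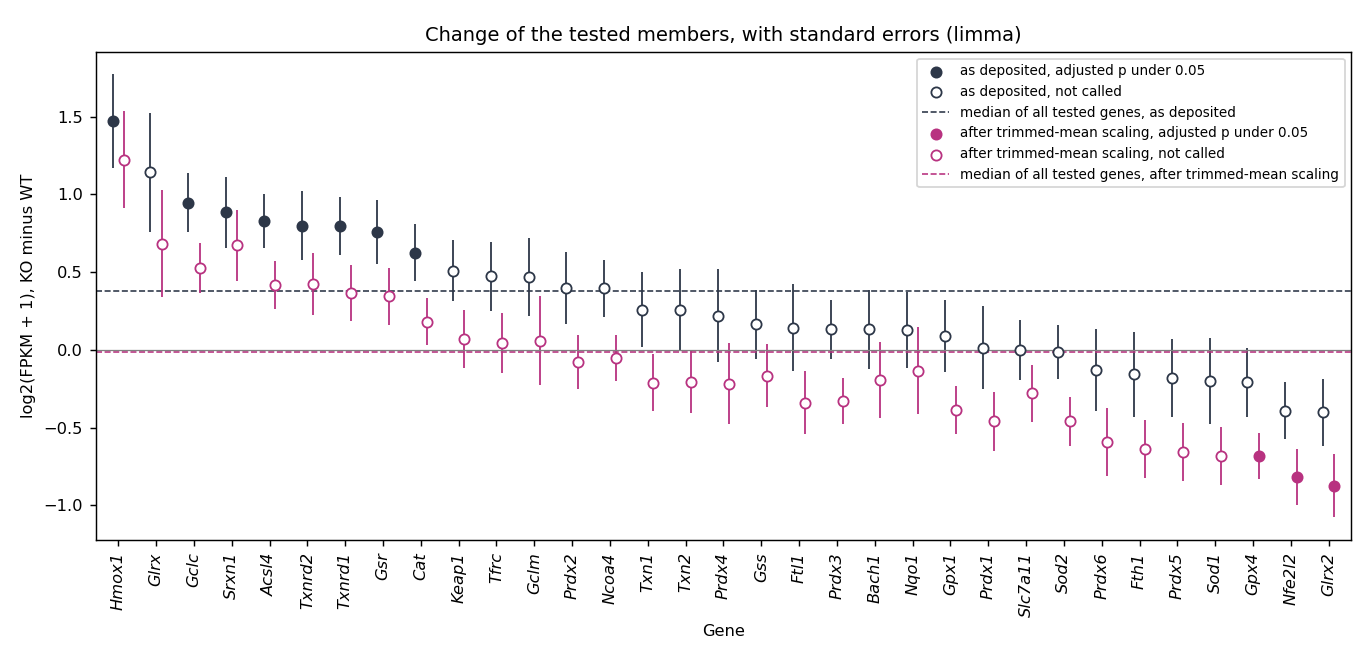
Change in log2(FPKM + 1) between the libraries labelled KO and WT for the 33 tested genes, with standard errors from limma, as deposited (dark) and after trimmed-mean scaling (magenta); filled points passed an adjusted p of 0.05 and dashed lines are the median of all tested genes. As deposited 8 points are filled, all of them above the median gene, and after scaling the 3 filled points are Gpx4, Nfe2l2 and Glrx2, all lower.

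None of the 3 regulators passed as deposited, and the values of Nfe2l2 and Keap1 lay on opposite sides of WT. Nfe2l2 was at 9.10 and 8.24 FPKM in WT and at 6.93 and 5.85 FPKM in KO. Both libraries labelled KO lay below both WT libraries, which 12.1% of all tested genes also did. As deposited its log2 change of -0.39 ± 0.18 (SE) did not pass (limma adjusted p = 0.147), and after trimmed-mean scaling it fell by 0.82 (limma adjusted p = 0.0478). Keap1, the adaptor that sends NRF2 to the proteasome, was at 8.01 and 7.33 FPKM in the WT libraries and at 12.8 and 9.97 FPKM in those labelled KO. The groups did not overlap, as for 58.5% of tested genes with the KO libraries above, but the change of 0.51 ± 0.20 did not pass (limma adjusted p = 0.0963). Bach1, the repressor, was at 1.57 and 2.71 FPKM in WT and at 1.93 and 2.92 FPKM in those labelled KO, and the groups overlapped.

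A ratio of 2 genes within 1 library does not depend on a scaling factor applied to the whole library, so 12 such ratios were compared. Quantile normalization is not such a factor and can change a ratio. The Keap1 to Nfe2l2 ratio was 0.880 and 0.889 in WT and 1.85 and 1.70 in KO. It was 2.01-fold higher in the libraries labelled KO, and the difference was 8.43 times the widest range within a group. After quantile normalization the log2 changes were 0.06 for Keap1 and -0.84 for Nfe2l2, against 0.51 and -0.39 as deposited. With 2 against 2 libraries an exact permutation test cannot give a two-sided p under 0.333, which is what this ratio gave (0.667 after Benjamini-Hochberg adjustment over the 12). The groups of 6 of the 12 ratios did not overlap; among all 528 pairs of tested members 60.8% did not, so the count is near its background.

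Glutathione is made from cysteine, which the cell takes up as cystine through the transporter encoded by Slc7a11, in steps run by glutamate-cysteine ligase (catalytic subunit Gclc, modifier subunit Gclm) and glutathione synthetase (Gss). Gclc was at 4.15 and 5.47 FPKM in WT and at 10.01 and 10.2 FPKM in KO. The libraries labelled KO lay well above both WT libraries. Gclc rose 2.11-fold in mean FPKM and by 0.95 ± 0.19 in log2(FPKM + 1) (limma adjusted p = 0.0192). Gclm was at 5.73 and 3.38 FPKM in WT and at 7.43 and 5.70 FPKM in KO, so that KO 2 lay within the WT range, and its change did not pass (limma adjusted p = 0.197). Gss was at 1.60 and 2.70 FPKM in WT and at 2.50 and 2.45 FPKM in KO, with overlapping groups. Slc7a11 stood at 1.24 to 1.64 FPKM in all 4 libraries, also with overlap.

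The ratio of Gss to Gclc separated the groups. It was 0.387 and 0.493 in WT and 0.250 and 0.239 in KO, a ratio 0.560 times as high in the libraries labelled KO and a difference 2.39 times the widest range within a group (exact permutation p = 0.333, two-sided, the smallest possible). The ratio of Gclm to Gclc, the 2 subunits of 1 enzyme, was 1.38, 0.618, 0.742 and 0.557 in WT 1, WT 2, KO 1 and KO 2, and the groups overlapped. Its direction turned on WT 1: without that library the log2 difference was 0.06 instead of -0.52.

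Glutathione reductase (Gsr) returns oxidised glutathione to its working form with NADPH. It was at 4.04 and 4.68 FPKM in WT and at 9.44 and 6.82 FPKM in KO, without overlap, and rose 1.87-fold (limma adjusted p = 0.0381). Glutaredoxins use glutathione to free proteins from mixed disulfides. The cytosolic Glrx was at 10.9 and 17.1 FPKM in WT and at 46.0 and 21.4 FPKM in KO. KO 1 was the higher of its group, and the change of 1.14 ± 0.38 did not pass (limma adjusted p = 0.066). Without KO 2, the lower of its group, it passed (limma adjusted p = 0.0016), a fit in which KO 1 alone stands for the KO group and is assumed to vary like the WT libraries.

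The mitochondrial Glrx2 lay on the other side. It was at 58.1 and 47.2 FPKM in WT and at 38.8 and 39.9 FPKM in KO, so that both libraries labelled KO lay below both WT libraries. As deposited this did not pass (-0.40 ± 0.21, limma adjusted p = 0.19), while after trimmed-mean scaling it fell by 0.87 (limma adjusted p = 0.0497). As deposited, 5.91% of tested genes had a change as low or lower. The Glrx2 to Glrx ratio was 5.31 and 2.76 in WT and 0.844 and 1.87 in KO, so Glrx2 exceeded Glrx in 3 libraries and not in KO 1.

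**Figure D3:**
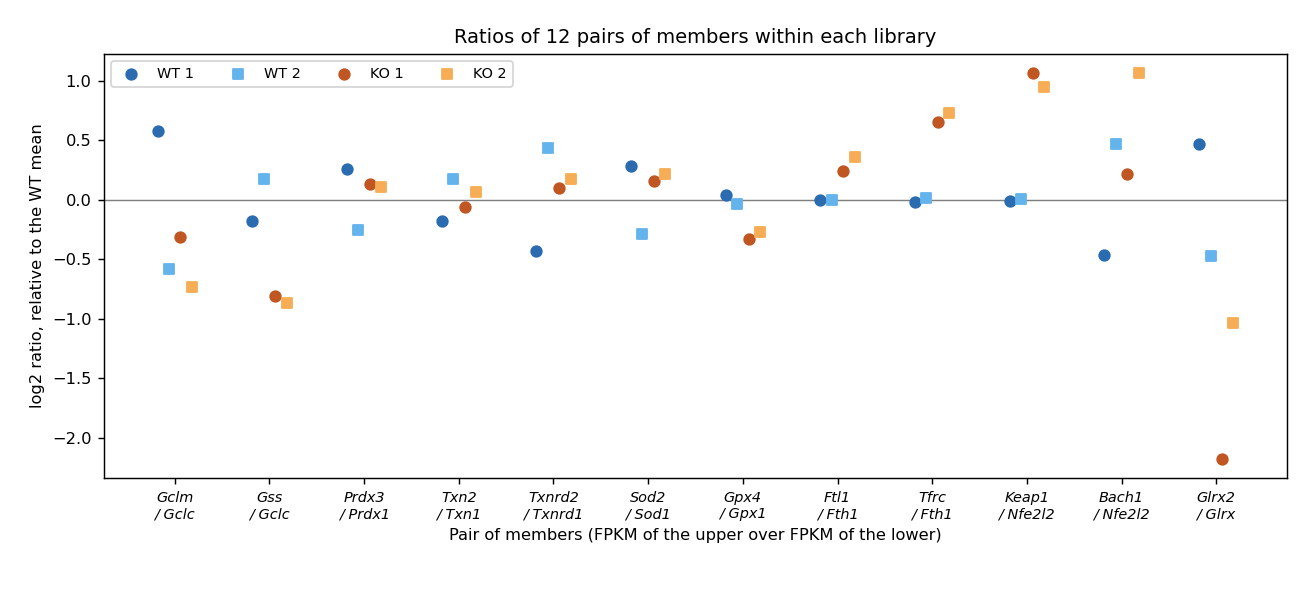
Log2 ratio of the FPKM of 2 members within each library, relative to the WT mean, for 12 pairs; each point is 1 library. The Keap1 to Nfe2l2 and Tfrc to Fth1 ratios of KO 1 and KO 2 lie far above the 2 WT points, which nearly coincide, while the Txn2 to Txn1 and Prdx3 to Prdx1 ratios overlap.

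In the thioredoxin system the reductases and sulfiredoxin rose while the thioredoxins did not pass. Txnrd1, the cytosolic thioredoxin reductase, was at 6.46 and 5.82 FPKM in WT and at 12.5 and 10.4 FPKM in KO. The groups were well apart, and it rose 1.86-fold in mean FPKM and by 0.80 ± 0.19 in log2(FPKM + 1) (limma adjusted p = 0.0263). Txnrd2, its mitochondrial counterpart, was at 1.997 and 3.29 FPKM in WT and at 5.60 and 4.89 FPKM in those labelled KO and rose 1.98-fold (limma adjusted p = 0.0401). Srxn1, which repairs peroxiredoxins that peroxide has over-oxidised, was at 0.235 and 0.701 FPKM in WT and at 1.72 and 1.64 FPKM in KO.

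Srxn1 rose 3.58-fold (limma adjusted p = 0.0335). Its values rest on about 13.1 and 40.4 fragments in WT and 78.7 and 81.8 in KO. The thioredoxins themselves overlapped between the groups: Txn1 (cytosolic) was at 33.98 and 40.99 FPKM in WT and at 52.7 and 38.2 FPKM in KO. Txn2 (mitochondrial) was at 18.4 and 28.3 FPKM in WT and at 30.8 and 24.5 FPKM in KO. The log2 ratio of Txn2 to Txn1 differed by 0.00 between the groups, with an SD of 0.25 and 0.09 within them.

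Peroxiredoxins are the abundant thiol enzymes that remove most hydrogen peroxide: Prdx1 and Prdx2 in the cytosol, Prdx3 in mitochondria, Prdx4 in the endoplasmic reticulum, Prdx5 in several compartments and Prdx6 with a further activity on phospholipids. None of the 6 passed as deposited, after trimmed-mean scaling or after quantile normalization (0 called by limma in each). The 6 ranged from -0.18 (Prdx5) to 0.40 (Prdx2), with a median of 0.07, which is 0.31 below the median gene. Prdx1 was at 51.4 and 79.3 FPKM in WT and at 67.2 and 62.0 FPKM in KO, so the libraries labelled KO lay between the WT libraries. Prdx2, which red cells also hold in large amounts, was at 44.8 and 49.2 FPKM in WT and at 71.5 and 54.0 FPKM in KO, above WT without overlap (limma adjusted p = 0.225). Prdx3 was at 17.9 to 21.5 FPKM, Prdx4 at 7.54 to 14.5, Prdx5 at 48.2 to 70.3 and Prdx6 at 20.9 to 32.04 FPKM over the 4 libraries.

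Among the other peroxide and superoxide enzymes catalase stood apart. Cat was at 8.63 and 9.49 FPKM in WT and at 15.5 and 13.6 FPKM in KO. It rose 1.61-fold, close to the threshold (limma adjusted p = 0.047), and leaving out any 1 library ended the call (limma adjusted p = 0.0687 to 0.282). Gpx4, the selenoenzyme that reduces lipid peroxides and holds off ferroptosis, was at 69.8 and 86.8 FPKM in WT and at 68.4 and 66.0 FPKM in KO. Both libraries labelled KO lay below both WT libraries, KO 1 by a small margin; the change of -0.21 ± 0.22 did not pass (limma adjusted p = 0.495), and after trimmed-mean scaling Gpx4 fell by 0.69 (limma adjusted p = 0.0463).

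Gpx1, the glutathione peroxidase of the cytosol, was at 55.5 and 72.8 FPKM in WT and at 70.3 and 65.0 FPKM in KO. The Gpx4 to Gpx1 ratio was 1.26 and 1.19 in WT and 0.972 and 1.02 in KO, a ratio 0.811 times as high in the libraries labelled KO and a difference 3.89 times the widest range within a group (exact permutation p = 0.333). Sod1, the cytosolic superoxide dismutase, was at 163 and 247 FPKM in WT and at 176 and 173 FPKM in KO. Sod2, the mitochondrial enzyme, was at 11.7, 11.98, 11.6 and 11.9 FPKM in WT 1, WT 2, KO 1 and KO 2, all within 1 FPKM of each other. Neither dismutase passed (limma adjusted p = 0.599 and 0.958).

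Of the genes tied to lipid peroxidation, Acsl4, which loads membranes with the polyunsaturated fatty acids that ferroptosis attacks, was at 4.25 and 4.82 FPKM in WT and at 9.25 and 8.44 FPKM in KO. It rose 1.95-fold in mean FPKM with groups far apart, and by 0.83 ± 0.17 in log2(FPKM + 1) (limma adjusted p = 0.021). Gpx4 and Slc7a11, which hold ferroptosis off, did not rise, as described above. Aifm2, an oxidoreductase that protects membranes through coenzyme Q, lay under the filter and was not tested, with 0.0827 and 0.210 FPKM in WT and 0.748 and 0.525 FPKM in KO, or about 5.1, 13.4, 37.9 and 28.9 fragments. Nqo1, a quinone reductase and a standard NRF2 target, was at 1.42 and 0.635 FPKM in WT and 1.26 and 1.08 FPKM in KO, with overlap.

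The 7 genes listed as NRF2 targets split. Of Hmox1, Nqo1, Srxn1, Gclc, Gclm, Txnrd1 and Slc7a11, 4 rose (Hmox1, Srxn1, Gclc and Txnrd1), 0 fell and 3 did not pass. Over all tested genes 25.6% were higher and 1% lower. Hmox1 and Srxn1 were under 1 FPKM in both WT libraries, so they were tested only because both libraries labelled KO reached that level. The median log2 change of the 7 was 0.80, against 0.38 for all tested genes. The 7 were chosen from the members with earlier results of these data known, and other members may also be NRF2 targets. Nfe2l2, Prdx1, Sod1 and Ncoa4 are not among the 7, although their promoter windows held the core. Their log2 changes were -0.39, 0.02, -0.20 and 0.40, and none passed as deposited (limma). How far the values of the 7 depend on the choice of list was not tested. After trimmed-mean scaling 0 of the 7 passed, against 4.68% of all tested genes higher and 5.2% lower, and their median was 0.37. Both libraries labelled KO lay above both WT in 4 of 7 after that scaling, against 31.9% of all tested genes. Hmox1 and Srxn1 are among these 4, and the filter had already fixed that order for them as deposited. With this filter and this choice of genes, the counts and medians of the 7 do not measure NRF2 targets as a set.

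Hmox1, the haem-degrading oxygenase that releases iron, had the largest change of the 33 members. It was at 0.339 and 0.624 FPKM in WT and at 2.06 and 4.47 FPKM in KO, which rest on about 9.9, 18.9, 49.6 and 116.9 fragments. KO 2 was the higher of its group, and both lay above WT. Hmox1 rose 6.78-fold in mean FPKM. In log2(FPKM + 1), which understates changes of low genes, it rose by 1.47 ± 0.30 (limma adjusted p = 0.02). With a pseudocount of 0.1 the log2 change was 2.48. As deposited, 97.2% of tested genes had a change in log2(FPKM + 1) as low or lower. In spleen Hmox1 and the iron exporter Slc40a1 are known for their high level in red pulp macrophages. The summed level of 12 macrophage and monocyte markers was 3.33 and 5.55 FPKM in WT and 10.47 and 10.7 FPKM in KO; of the 3 tested markers Lyz2 rose, from 0.164 and 1.53 FPKM to 2.99 and 4.38 FPKM, and Cd68 and Cd163 did not pass. In 5 of the 12 both libraries labelled KO lay above both WT libraries, against 58.5% of all tested genes. These were Lyz2, Cd68 (1.04, 0.952, 2.25 and 1.55 FPKM), and the untested Vcam1 (0.160, 0.240, 1.10 and 0.944), C1qb (0.217, 0.210, 0.462 and 0.788) and C1qa (0.159, 0.616, 0.709 and 1.18). Adgre1, Csf1r and C1qc overlapped between the groups. Cd163 lay below WT, and Spic, Marco and Cd14 were at 0 in WT 1, WT 2 and KO 2. The summed level of 13 erythroid marker rows was 8.40 and 100.6 FPKM in WT and 399 and 324 FPKM in KO, with 6 of 6 tested rows higher. The part of either cell type in the Hmox1 result was not tested.

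Slc40a1, the ferroportin gene, lay under the filter and was not tested, with 0.117 and 0.0426 FPKM in WT and 0.357 and 0.246 FPKM in KO, or about 9.3, 3.5, 23.4 and 17.5 fragments. Both libraries labelled KO lay above both WT libraries. Fth1, the ferritin heavy chain with the ferroxidase site, was at 331 and 471 FPKM in WT and at 332 and 377 FPKM in KO. Ftl1, the light chain, was at 239 and 341 FPKM in WT and at 284 and 349 FPKM in those labelled KO, and neither ferritin gene passed (limma adjusted p = 0.681 and 0.718). Ferritin genes have near-identical copies in the genome, and the handling of shared reads is not stated, so these levels are uncertain.

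The light to heavy chain ratio was tight within groups. Ftl1 to Fth1 was 0.722 and 0.724 in WT and 0.856 and 0.927 in KO, a ratio 1.23-fold higher in the libraries labelled KO and a difference 2.64 times the widest range within a group. Tfrc, the receptor that brings in transferrin-bound iron, was at 5.74 and 8.33 FPKM in WT and at 9.14 and 10.96 FPKM in KO. The groups did not overlap, but the change did not pass (limma adjusted p = 0.15). The Tfrc to Fth1 ratio was 0.0173 and 0.0177 in WT and 0.0275 and 0.0291 in KO, 1.61-fold higher in the libraries labelled KO. The difference was 8.47 times the widest range within a group (exact permutation p = 0.333 for both ratios, the smallest possible). After quantile normalization the log2 changes were 0.03 for Tfrc and -0.05 for Fth1, against 0.47 and -0.16 as deposited, so this difference was much smaller there.

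Ncoa4, the receptor that delivers ferritin to the lysosome for iron release, was at 9.95 and 11.4 FPKM in WT and at 14.7 and 14.0 FPKM in KO. Its groups did not overlap, and its change of 0.40 ± 0.18 lay 0.02 from the median gene and did not pass (limma adjusted p = 0.146). Dividing cells take up iron, and 9 of 10 tested markers of dividing cells rose, with a summed level of 22.5 and 21.6 FPKM in WT and 125 and 58.3 FPKM in KO. Their part in the values of Tfrc and the other members was not tested.

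The members that rose were of low and middle level. Of the 20 tested members with a mean under 20 FPKM, a level chosen after the values were seen, 8 rose (40%) and the median log2 change was 0.47, against 27.8% and 0.41 for all tested genes of that level. Of the 13 at 20 FPKM or more, 0 rose and 0 fell by limma, although Glrx had a change of 1.14, and the median was 0.02, against 16.6% higher and a median of 0.23 for all genes of that level. Across the 33 members the change had a Spearman rho of -0.49 with the mean level and of 0.17 with transcript length. Over the 9921 tested genes with a length these were -0.05 and 0.31. These are descriptions across genes, which share the libraries and are not replicates.

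**Figure D4:**
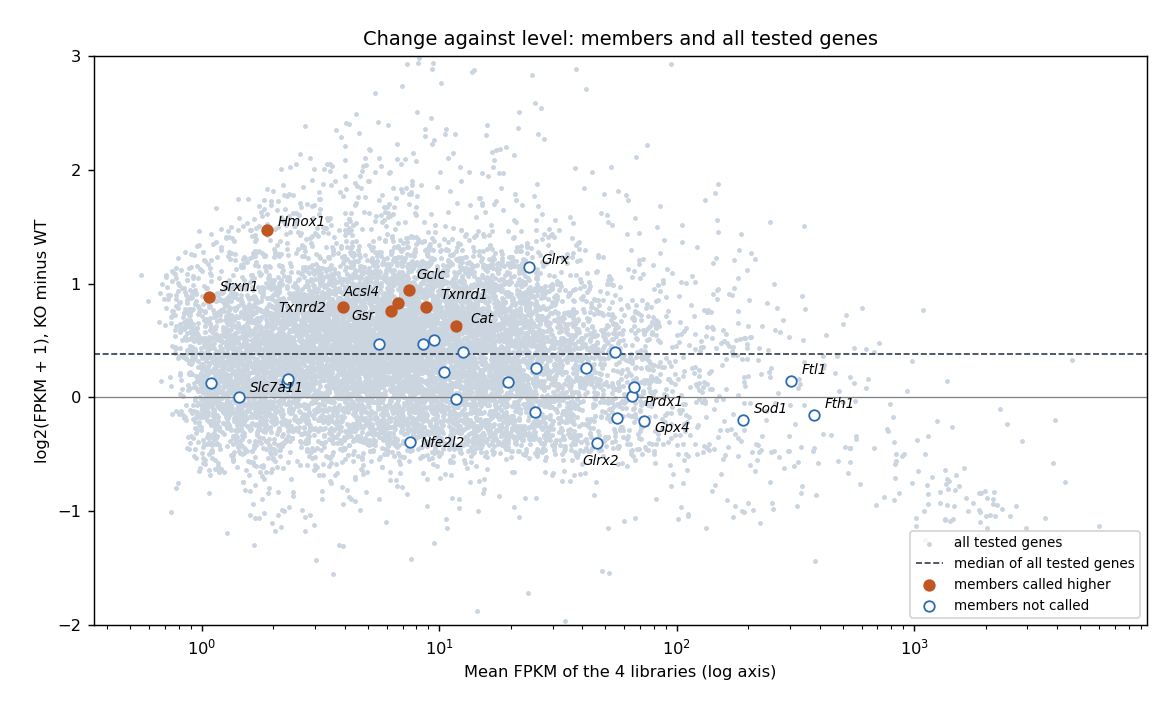
Change in log2(FPKM + 1) between the libraries labelled KO and WT against the mean FPKM of the 4 libraries (log axis), for all tested genes (grey) and the 33 tested members (orange, called higher; open blue, not called); 49 genes lie outside the vertical axis. The 8 orange points lie left of 20 FPKM, and the abundant Sod1, Fth1, Gpx4 and Glrx2 lie below 0.

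The calls of all 8 members were lost under some settings. Without WT 2 only Acsl4, Gclc and Txnrd2 of the 8 passed, without KO 1 only Gclc, Hmox1 and Srxn1, and without KO 2 all but Cat. After trimmed-mean scaling, after quantile normalization, with no filter on low rows, without WT 1, and with the trend of values on transcript length removed (an alternative chosen after seeing the data), 0 of the 8 passed in limma. Without WT 1, which leaves 1 library in the WT group, the whole table had 9 genes higher and 1 lower; the log2 changes of the 8 were then 0.54 (Txnrd2) to 1.33 (Hmox1), with Txnrd1 at 0.86 and Acsl4 at 0.76. The direction of each of the 8 was upward under every alternative run, with log2 changes from 0.50 to 1.11 for Gclc, 0.58 to 2.48 for Hmox1 and 0.18 to 0.72 for Cat. Gclc passed in 8 of 13 alternatives, Acsl4 in 7, Gsr and Txnrd1 in 6 and Cat in 5. Of the 12 alternatives that test the other 3, Hmox1 and Txnrd2 passed in 6 and Srxn1 in 5. Srxn1 also missed the threshold with a pseudocount of 0.1 (limma adjusted p = 0.0543). The 3 falls after trimmed-mean scaling did not pass as deposited or after quantile normalization (limma adjusted p = 0.0618 for Nfe2l2, 0.0986 for Glrx2 and 0.081 for Gpx4).

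Other genes of the same pathways were taken from 8 further lists. Of 102 tested rows 19 rose and 3 fell as deposited, that is 18.6% higher against 25.6% of all tested genes, of which 1% fell. Their median change was 0.23. After trimmed-mean scaling 2 of the 102 rose and 5 fell, against 4.68% and 5.2% of all tested genes. Among partners of NRF2 (7 tested, 1 rose) Mafg, a small Maf protein that pairs with NRF2 and BACH1 on DNA, rose from 1.79 and 3.50 FPKM in WT to 7.84 and 7.92 FPKM in KO (limma adjusted p = 0.0173). Among 15 tested glutathione enzymes 3 rose and 1 fell. Abcc1, which exports glutathione conjugates, rose 3.02-fold and also passed after trimmed-mean scaling (limma adjusted p = 0.0142 and 0.0461). Ggt1, which breaks glutathione down outside the cell, rose 3.03-fold and Gsto1, a glutathione transferase, 2.46-fold (limma adjusted p = 0.0156 and 0.0208). Gstk1, a glutathione transferase of mitochondria and peroxisomes, fell from 5.12 and 5.89 FPKM to 2.65 and 2.72 FPKM (limma adjusted p = 0.0212, and 0.0203 after trimmed-mean scaling).

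NADPH, the electron source for Gsr and the thioredoxin reductases, is supplied by enzymes of which 4 of 9 tested rose, against 25.6% of all tested genes. G6pdx, the entry enzyme of the pentose phosphate pathway, was at 3.74 and 3.93 FPKM in WT and at 12.3 and 7.08 FPKM in KO (limma adjusted p = 0.0263). Pgd, its next dehydrogenase, rose 1.74-fold, Nadk, which makes NADP, 1.83-fold, and Nnt, the mitochondrial transhydrogenase, 1.66-fold (limma adjusted p = 0.0386, 0.0258 and 0.0398), and none of the 4 passed after trimmed-mean scaling (limma adjusted p = 0.104 to 0.438). Of 6 tested NADPH oxidase subunits, which make superoxide, 3 rose, against the same 25.6%. Cybb, the catalytic subunit, was at 1.34 and 1.79 FPKM in WT and at 7.70 and 6.997 FPKM in those labelled KO and rose with and without trimmed-mean scaling (limma adjusted p = 0.0106 and 0.019). Cybb is known as a gene of phagocytes and B cells: the summed level of 9 B and plasma cell markers was 11.6 and 13.0 FPKM in WT and 21.6 and 24.1 FPKM in KO, with 2 of 4 tested higher, and their part was not tested. Ncf4 rose 2.63-fold and Rac2 1.69-fold (limma adjusted p = 0.0243 and 0.0468), and neither passed after trimmed-mean scaling (limma adjusted p = 0.0703 and 0.258).

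Of 15 tested enzymes of thioredoxin-like and repair functions 1 rose and 1 fell as deposited, and of 8 tested genes of lipid peroxidation 0 did either. Over all tested genes 25.6% rose and 1% fell. Sesn3, a sestrin, rose 2.10-fold (limma adjusted p = 0.0266, and 0.104 after trimmed-mean scaling). Msrb2, a mitochondrial methionine sulfoxide reductase, fell from 5.71 and 6.44 FPKM to 2.93 and 2.58 FPKM (limma adjusted p = 0.0176, and 0.019 after trimmed-mean scaling). The 2 genes of lipid peroxidation with the smallest p, which did not pass in limma, were Fdft1 and Gch1. Fdft1, of sterol synthesis, was at 5.43 and 4.80 FPKM in WT and 9.02 and 6.88 FPKM in KO. Gch1, of tetrahydrobiopterin synthesis, was at 0.818 and 2.10 FPKM in WT and 2.99 and 2.86 FPKM in KO.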

How the data were processed

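RNA of 4 libraries was sequenced (2 WT, 2 KO). Per the labels' protocols, libraries were made from total RNA with a NEBNext Ultra kit; the tool Bowtie 0.12.2 and the build mm8 come from the submitters' processing notes. The authors deposited 1 FPKM value per gene symbol and library, per the file headers; the program, annotation and strand setting are not stated there. The members and lists were chosen with earlier results of these data known.

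Rows reaching 1 FPKM in 2 or more libraries were tested with limma 3.58.1 (R 4.3.3, intensity trend) on log2(FPKM + 1), a scale that understates changes of low genes. Rows under 1 FPKM in both WT libraries were tested only where both libraries labelled KO reached it. Hmox1, Srxn1 and some marker rows were of this kind, so their calls partly rest on the filter. Tests were two-sided, with Benjamini-Hochberg adjustment over all 11074 rows tested and a threshold of 0.05; the tests were tried on simulated data. Folds are ratios of mean FPKM. All 35 members are named; of other lists up to 4 genes by unadjusted p (2 where none passed), of marker lists up to 3 by mean. The other markers named (Cd4, Cd3e, Cd5, Cd247, Cd28, Vcam1, C1qa, C1qb, C1qc, Adgre1, Csf1r, Spic, Marco and Cd14) were chosen after their values were seen. Lists that touch no result are not named. Of 235 list symbols 13 matched through a synonym and 4 did not match. Depth estimates assume fragments of 200 nt, and 51.1% to 56.9% of low values lay within 0.05 of a whole fragment, so no test for counts was run. Ratios within a library used FPKM with no pseudocount. The trimmed-mean factors (WT 0.791 and 0.905, KO 1.21 and 1.16) came from the tested rows. Transcript lengths are the longest in GENCODE vM21 (GRCm38); positions on mm8 were not used here. Other steps used Python 3.11.15.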

Additional observations from a re-analysis of the deposited data

How the results depend on the processing

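Counts of calls moved with scaling, filter and library (limma, adjusted p under 0.05). After trimmed-mean scaling 518 genes were higher and 576 lower, with 0 and 3 members and 2 and 5 other pathway genes. After quantile normalization 179 genes, 0 members and 1 other pathway gene were higher. With no filter 3 genes were higher and 0 lower, with 0 members and 0 other pathway genes (4604 and 541 genes and 12 members at an unadjusted p under 0.05); the filter of 5 FPKM left 26 members tested and 5 higher. With the length trend removed 406 genes were higher and 205 lower, with 0 members and 2 other pathway genes higher. Leaving out 1 library gave 9 to 2173 genes higher and 1 to 132 lower, 0 to 8 members higher, and 0 to 14 other pathway genes higher and 0 to 3 lower; the lowest counts came without WT 1 (3054 and 346 genes at an unadjusted p under 0.05), 3 members rose without WT 2 and 3 without KO 1. With the replicate block 3909 genes were higher and 230 lower, and Glrx passed (limma adjusted p = 0.00309) besides the 8 members. The numbers need not pair the libraries: deviations of WT 1 and KO 1 correlated at 0.11 over genes. The cause of these shifts was not tested.

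Members near 0 changed sign. After trimmed-mean scaling Bach1 was at -0.19, Nqo1 -0.13, Gss -0.17, Txn1 -0.21, Txn2 -0.21, Prdx1 -0.46, Prdx2 -0.077, Prdx3 -0.33, Prdx4 -0.22, Gpx1 -0.39, Slc7a11 -0.28, Ncoa4 -0.050 and Ftl1 -0.34. After quantile normalization Bach1 was at -0.25, Nqo1 -0.25, Gss -0.22, Txn1 -0.040, Txn2 -0.072, Prdx1 -0.25, Prdx3 -0.25, Prdx4 -0.22, Gpx1 -0.17, Slc7a11 -0.34 and Ncoa4 -0.032. With the length trend removed Bach1 was at -0.44, Nqo1 -0.065, Gclm -0.087, Gss -0.24, Txn2 -0.033, Prdx1 -0.30, Prdx3 -0.037, Slc7a11 -0.64, Ncoa4 -0.12 and Tfrc -0.050. Leaving out 1 library gave ranges of -0.13 to 0.40 for Bach1, -0.41 to 0.094 for Fth1, -0.11 to 0.40 for Ftl1, -0.10 to 0.28 for Gpx1, -0.089 to 0.42 for Gss, -0.16 to 0.41 for Nqo1, -0.29 to 0.32 for Prdx1, -0.14 to 0.58 for Prdx4, -0.43 to 0.068 for Prdx5, -0.42 to 0.16 for Prdx6, -0.12 to 0.12 for Slc7a11, -0.50 to 0.10 for Sod1 and -0.042 to 0.55 for Txn2 and -0.031 to 0.0040 for Sod2. With a pseudocount of 5 Slc7a11 was at -0.00077, and with a pseudocount of 1 the Txn2 to Txn1 ratio at -0.0027. The log2 ratio difference ranged from -1.10 to 0.057 for Gclm to Gclc, -0.13 to 0.38 for Prdx3 to Prdx1, -0.10 to 0.47 for Sod2 to Sod1, -0.17 to 0.18 for Txn2 to Txn1 and -0.30 to 0.57 for Txnrd2 to Txnrd1.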

Other observations

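Haem and iron genes outside the members held both rises and falls. Of 29 tested, 6 rose (20.7%) and 1 fell as deposited (limma), against 25.6% and 1% of all tested genes. Once trimmed-mean scaling was applied 0 rose and 2 fell, against 4.68% and 5.2% of all tested genes. Ppox and Fech, which run the last steps of haem synthesis, rose 2.11-fold and 1.93-fold (limma adjusted p = 0.0175 and 0.0256), and Slc25a37, the mitochondrial iron importer, rose 1.87-fold (limma adjusted p = 0.025). These genes are also high in erythroid cells, whose markers were higher in the libraries labelled KO; the part of such cells was not tested. Bola2, a partner of the iron-sulfur glutaredoxin, was abundant and fell from 161 and 204 FPKM in WT to 94.8 and 69.3 FPKM in KO (limma adjusted p = 0.0251, and 0.0171 after trimmed-mean scaling).

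Of 13 tested genes of selenoproteins and of selenium supply outside the members, 11 lay below the median gene. Secisbp2, which lets ribosomes insert selenocysteine, rose 1.98-fold (limma adjusted p = 0.0226). Sepp1, the secreted selenium carrier, was at 71.8 and 77.2 FPKM in WT and at 44.8 and 52.8 FPKM in KO; it did not pass as deposited (limma adjusted p = 0.0763) and fell after trimmed-mean scaling (limma adjusted p = 0.0279).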
